A study of Ovis aries with 6 samples.

Results

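The genes described here mark the blood vessel wall of the choroid plexus: 17 genes of endothelial cells, 12 genes of mural cells, which are the pericytes and smooth muscle cells around the endothelium, and 4 genes for the growth factors that pass between these cells. They were taken by symbol from the deposited count table, with the condition that a gene averaged at least 0.2 CPM (read counts scaled to library size) over all pools. All 33 symbols were found once each, all 33 met the condition, and all 33 were among the 18019 genes with enough counts to be tested, of 33609 genes listed. The member with the fewest reads still had 236 counts in its lowest pool, so no member entered through a high level in 1 group alone.

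Choroid plexus was collected from thyroidectomised ewes kept in long days (THX), from control ewes in long days (Long) and from control ewes in short days (Short). Each group is represented by 2 pools, made by mixing equal amounts of RNA from 3 to 4 ewes, and polyA RNA of the 6 pools was sequenced. The series text gives 8 ewes per group with 7 in the THX group, and a total of 24, which is not the sum of these. The control groups differ in day length and carry the label control; no source used here gives breed, age or the time since surgery.

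The choroid plexus carries fenestrated capillaries, whose pores are closed by thin diaphragms, so that plasma reaches the epithelium that secretes cerebrospinal fluid. Endothelial cells read vascular endothelial growth factor through the receptors KDR and FLT1 and read angiopoietins through the receptor TEK, and they release PDGFB, which in mice draws pericytes to the vessel through PDGFRB. Mural cells set vessel calibre through a contractile apparatus of smooth muscle actin, myosin and their regulators.

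Total counts per pool ran from 48282883 to 82100653. Levels are given as CPM after TMM scaling, which sets a common scale from the bulk of the genes. Because transcript lengths were not at hand, levels are compared between pools and not ranked between genes. A sum over a list is weighted toward the genes with the most reads. Group means carry the SD of 2 pools. Each p-value rests on the spread between pools of a group, estimated over all 3 groups together. The spread of the Short pools therefore also enters the SEs and intervals of THX against Long pools. Variation from ewe to ewe within a pool is not seen. HR, a target of the thyroid hormone receptor, stood at 3.36 and 2.76 CPM in THX pools, against 23.7 and 23.4 CPM in Long pools and 25.6 and 25.3 CPM in Short pools (log2 difference of THX from Long −2.94, edgeR adjusted p = 0.000835), and KLF9, another such target, was at 36.1 and 34.1 CPM in THX pools, against 93.2 and 89.9 CPM in Long pools and 100 and 88.3 CPM in Short pools. All 17 endothelial and all 12 mural markers were present in every pool. In tissue RNA, fewer vessel cells and less RNA per vessel cell cannot be told apart.

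None of the 33 vascular genes changed in any of the 3 comparisons by the quasi-likelihood test of edgeR at an adjusted p of 0.05. In THX against Long pools 4 of 33 had an unadjusted p under 0.05 (12.1%, where all tested genes gave 9.08%), and the adjusted calls made up 0.283% of all genes, with 0.233% of all genes lower in THX pools. In Long against Short pools 7 of 33 had an unadjusted p under 0.05 (21.2%, against 13.8% of all tested genes), and no gene in the table was called, a background of 0%. In THX against Short pools 14 of 33 did so (42.4%, against 22.6% of all tested genes), where 0.916% of all genes were called. This share varied with the setting. It was 45.5% by DESeq2 (22.6% of all genes) and 21.2% with only the 4 THX and Short pools fitted (17.3% of all genes). With only the 4 THX and Long pools fitted, 6 of 33 had an unadjusted p under 0.05 in that comparison (18.2%, against 8.73% of all genes). TAGLN and CNN1 were then among them. Short pool 2 was the higher Short pool in most of the 33 genes, as given below. DESeq2 called 2 of the 33 in THX against Long pools, where it called 2.49% of all genes, 0 in Long against Short pools (0.882% of all genes) and 3 in THX against Short pools (9.77% of all genes). The limma-voom test called 0 of the 33 in each. The comparisons share pools, so their values are not independent of each other.

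The 95% intervals set a limit on what could have gone unseen. In THX against Long pools the interval lay within a fold of 2 in either direction for 30 of 33 genes and within a fold of 1.5 for 25 of 33. All 17 endothelial genes were among those 25. Of the 12 mural genes 6 had an interval within a fold of 1.5, so the bound on this class was wider. In Long against Short pools the counts were 33 of 33 within a fold of 2 and 21 of 33 within a fold of 1.5, and in THX against Short pools they were 31 and 19.

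**Figure D1:**
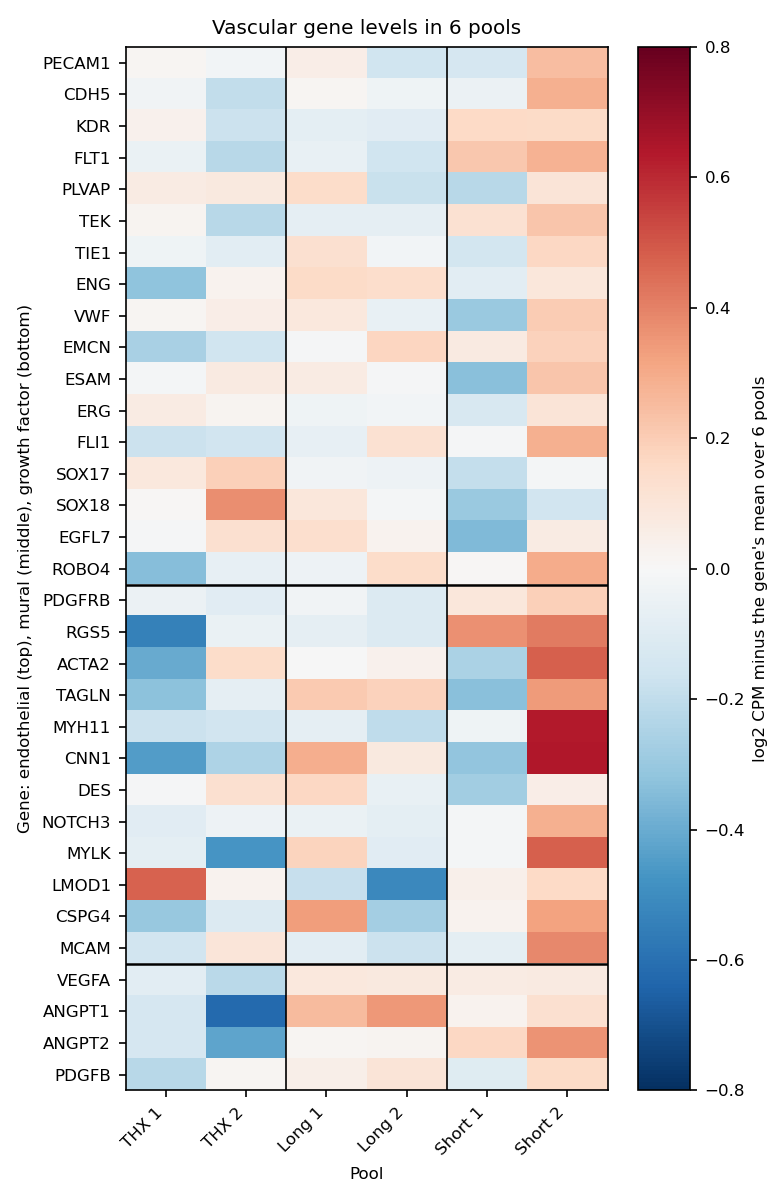
Levels of the 33 genes (rows) in the 6 pools (columns), as log2 CPM minus the gene's own mean over the 6 pools, with red above and blue below that mean. Short pool 2 was the highest pool for 11 of 17 endothelial and 9 of 12 mural genes, and the groups do not separate as blocks of colour.

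The endothelial genes of cell contact and surface stayed close together across the groups. PECAM1, an adhesion molecule of endothelial junctions, was at 77.5 and 75.5 CPM in THX pools, 79.4 and 68.7 CPM in Long pools and 69.7 and 91.1 CPM in Short pools. CDH5, the cadherin that holds endothelial cells together, was at 44.3 and 39.5 CPM in THX pools, 45.7 and 44.1 CPM in Long pools and 43.7 and 55.1 CPM in Short pools. PLVAP, the protein of the fenestral diaphragm, was at 118 and 119 CPM in THX pools, 125 and 99.8 CPM in Long pools and 96.8 and 121 CPM in Short pools. In PECAM1 and PLVAP the 3 groups overlapped, and in CDH5 1 THX pool lay below the rest. For PLVAP in THX against Long pools the log2 difference was 0.08 with a 95% interval from −0.25 to 0.41 (edgeR, adjusted p = 0.97). For CDH5 it was −0.10, from −0.39 to 0.19 (adjusted p = 0.925), and for PECAM1 0.05, from −0.28 to 0.37 (adjusted p = 0.981).

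EMCN, the sialoglycoprotein endomucin on the luminal surface, had the lowest p of the endothelial genes in THX against Long pools. It stood at 47.7 and 51.2 CPM in THX pools, 56.6 and 64.3 CPM in Long pools and 60 and 64.8 CPM in Short pools. Both THX pools lay below all 4 pools of ewes with a thyroid. The log2 difference was −0.29 (SE 0.094, adjusted p = 0.404) against Long pools and −0.34 (SE 0.094, adjusted p = 0.122) against Short pools, neither past the test of edgeR. DESeq2 called the difference from Short pools (adjusted p = 0.037). ESAM, a junction protein whose lowest pool was Short pool 1, differed by a factor of 1.47 between its highest and lowest pool.

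Among the receptors, those for vascular endothelial growth factor and angiopoietins were lower in the 4 pools from long days, with or without thyroid, than in the Short pools, without passing the test. FLT1, a receptor that binds VEGFA and limits its action on KDR, was at 40 and 35.6 CPM in THX pools, 39.8 and 37.1 CPM in Long pools and 48.2 and 50.3 CPM in Short pools. KDR, the main signalling receptor for VEGFA, was at 109 and 94.8 CPM in THX pools, 101 and 100 CPM in Long pools and 119 and 119 CPM in Short pools. TEK, the angiopoietin receptor, was at 69.1 and 58.4 CPM in THX pools, 64.7 and 64.8 CPM in Long pools and 73.9 and 79.2 CPM in Short pools. In all 3 genes both Short pools lay above the other 4, and the THX and Long pools overlapped. The log2 differences of Long from Short pools were −0.36 for FLT1 (SE 0.089), −0.24 for KDR (SE 0.087) and −0.24 for TEK (SE 0.098), with adjusted p of 0.342, 0.342 and 0.357 by edgeR. Those of THX from Short pools were −0.38, −0.22 and −0.26 (adjusted p = 0.0922, 0.193 and 0.183). DESeq2 called FLT1 in THX against Short pools (adjusted p = 0.0126) and not in Long against Short pools (adjusted p = 0.0852). Over the edgeR fits that left out 1 pool, the log2 difference of FLT1 in THX against Short pools ran from −0.46 to −0.29. In THX against Long pools FLT1, KDR and TEK differed by −0.02, 0.02 and −0.02, and the widest of the 3 intervals ran from −0.26 to 0.21.

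The other receptors were ordered differently. ENG, a coreceptor for TGF-beta family ligands, was at 129 and 165 CPM in THX pools, 179 and 178 CPM in Long pools and 152 and 172 CPM in Short pools. ROBO4, an endothelial guidance receptor that stabilises vessels, was at 34.5 and 41.9 CPM in THX pools, 42.5 and 48.5 CPM in Long pools and 44.1 and 53.8 CPM in Short pools. In both genes THX pool 1 was the lowest of the 6, and the THX and Long pools did not overlap. Their log2 differences in THX against Long pools were −0.28 for ENG (SE 0.124, adjusted p = 0.572) and −0.25 for ROBO4 (SE 0.138, adjusted p = 0.69). In THX against Short pools ROBO4 was at −0.36 (SE 0.137, adjusted p = 0.193). TIE1, the partner of TEK, had a log2 difference of −0.12 in THX against Long pools (adjusted p = 0.888).

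Of the 4 endothelial transcription factors, none passed the test. SOX18, a factor of vessel development, was at 16.4 and 21.2 CPM in THX pools, 17.4 and 16.1 CPM in Long pools and 13.3 and 14.7 CPM in Short pools. ERG, an ETS factor that maintains endothelial identity, was at 18.6 and 18 CPM in THX pools, 17.3 and 17.4 CPM in Long pools and 16.2 and 19 CPM in Short pools. SOX18 was higher in both THX pools than in both Short pools, while ERG had the narrowest range of the endothelial genes, a factor of 1.18 between the extreme pools. The log2 difference of SOX18 was 0.43 in THX against Short pools (SE 0.145, adjusted p = 0.159). Over the fits that left out 1 pool it ran from 0.24 to 0.6. With all pools, the log2 difference of SOX17, a relative of SOX18, was 0.24 (SE 0.145, adjusted p = 0.349). FLI1, the ETS factor most related to ERG, had a log2 difference of −0.31 in the same comparison (SE 0.128, adjusted p = 0.214).

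VWF, the clotting protein stored in endothelial granules, was at 202 and 208 CPM in THX pools, 212 and 193 CPM in Long pools and 163 and 230 CPM in Short pools, so the Short pools enclosed the other 4. EGFL7, a secreted endothelial matrix protein, had a log2 difference of −0.02 in THX against Long pools (SE 0.138) and 0.21 in Long against Short pools (SE 0.138). Over the 17 endothelial genes, 8 lay above 0 and 9 below in THX against Long pools (49.7% of all tested genes lay below), with a median log2 difference of −0.02, where the median over all tested genes was 0. Pools did not overlap in 2 upward and 5 downward, against 18.5% and 18.7% of all tested genes. In Long against Short pools the median was −0.02, with 2 genes higher and 3 lower without overlap (26.7% and 26.8% of all genes). In THX against Short pools the median was −0.08, with 2 higher and 6 lower (25.7% and 26.7% of all genes).

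**Figure D2:**
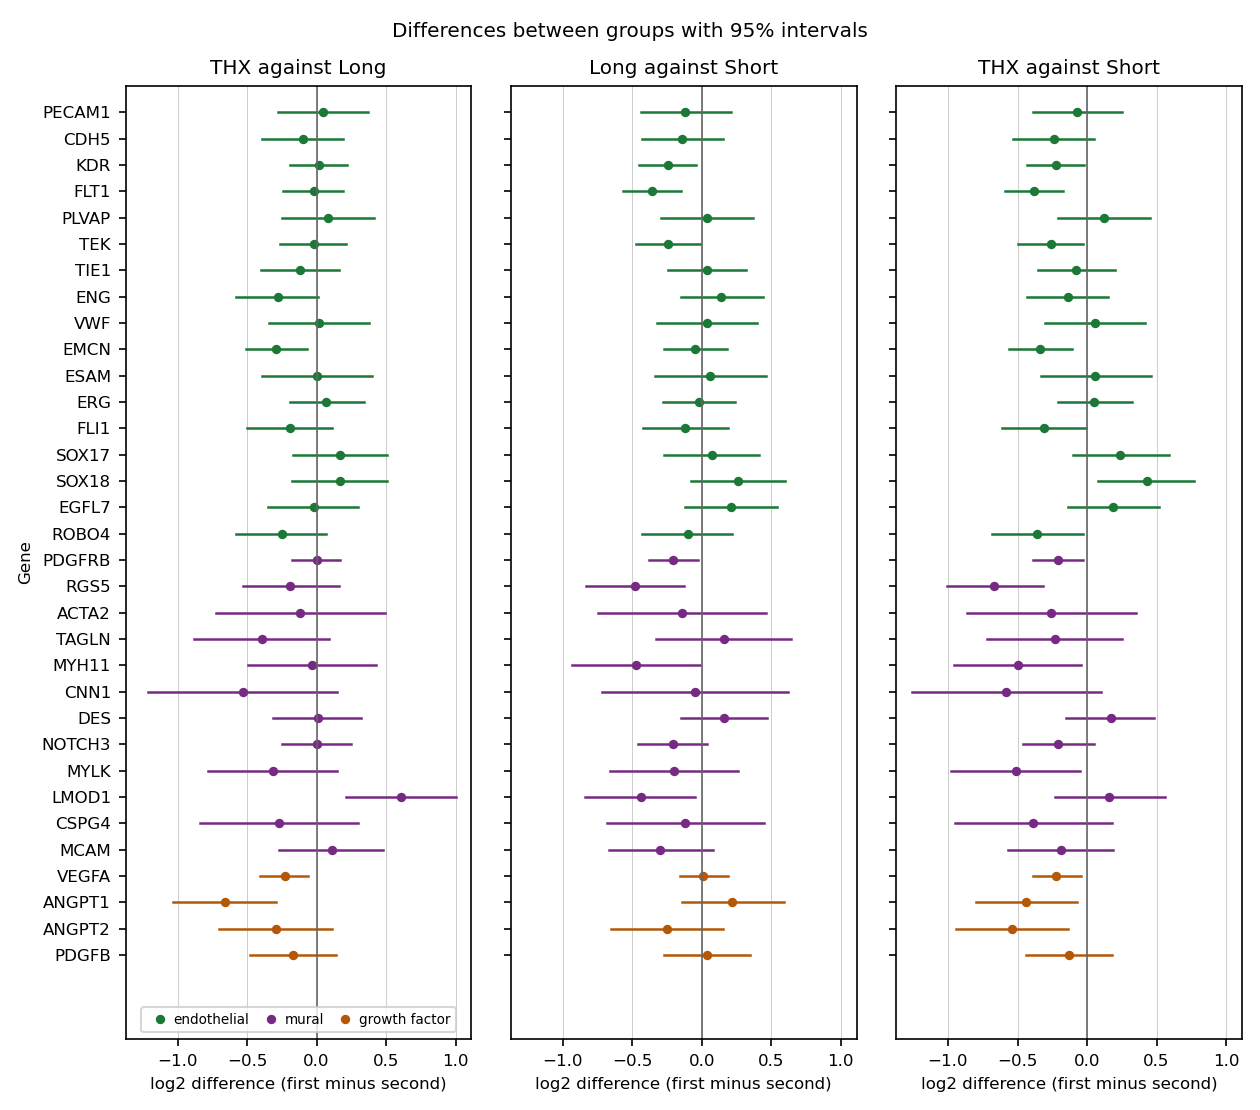
Log2 differences (points) with 95% intervals (bars) of the 33 genes for THX against Long, Long against Short and THX against Short pools, from the fit to all 6 pools. Positive values mean higher in the group named first. CNN1 has the widest interval in each panel, 1, 3 and 7 of the 17 endothelial intervals lie wholly to one side of 0 in the panels from left to right, and LMOD1 and ANGPT1 lie farthest from 0 in THX against Long pools.

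Of the mural genes that are receptors or pericyte markers, RGS5 differed most. RGS5, a regulator of G protein signalling that marks pericytes, was at 175 and 245 CPM in THX pools, 243 and 236 CPM in Long pools and 328 and 339 CPM in Short pools. Both Short pools were above every THX and Long pool, and THX pool 1 was the lowest. The log2 difference was −0.67 in THX against Short pools (SE 0.147, adjusted p = 0.0834), −0.48 in Long against Short pools (SE 0.146, adjusted p = 0.342) and −0.19 in THX against Long pools (SE 0.146, adjusted p = 0.834). The first passed with DESeq2 (adjusted p = 0.000501). By edgeR it was −0.44 without THX pool 1 and −0.92 without THX pool 2.

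PDGFRB, the receptor by which pericytes read PDGFB, was at 215 and 209 CPM in THX pools, 218 and 206 CPM in Long pools and 237 and 253 CPM in Short pools. NOTCH3, the Notch receptor of mural cells, was at 82.1 and 85.1 CPM in THX pools, 84.3 and 82.8 CPM in Long pools and 86.5 and 106 CPM in Short pools. In both genes the THX and Long pools lay together below the Short pools. The log2 difference of PDGFRB was 0 in THX against Long pools, with an interval from −0.18 to 0.17, and −0.21 in Long against Short pools (SE 0.074, adjusted p = 0.342). NOTCH3 gave 0 (interval from −0.25 to 0.25) and −0.21 (SE 0.106, adjusted p = 0.41). The proteoglycan CSPG4 and the adhesion molecule MCAM, which endothelial cells also carry, had log2 differences of −0.27 and 0.11 in THX against Long pools (adjusted p = 0.866 and 0.954).

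Most contractile genes differed strongly between the 2 Short pools. ACTA2, smooth muscle actin, was at 102 and 149 CPM in THX pools, 134 and 138 CPM in Long pools and 113 and 188 CPM in Short pools. MYH11, the smooth muscle myosin heavy chain, was at 123 and 124 CPM in THX pools, 132 and 120 CPM in Long pools and 135 and 214 CPM in Short pools. TAGLN, the actin-binding protein transgelin, was at 149 and 179 CPM in THX pools, 217 and 213 CPM in Long pools and 148 and 237 CPM in Short pools. Short pool 2 was the highest of the 6 in all 3. TAGLN was lower in both THX pools than in both Long pools (log2 difference −0.39, SE 0.205, adjusted p = 0.665). ACTA2 overlapped between all groups, with a log2 difference of −0.12 in THX against Long pools and an interval from −0.72 to 0.49. MYH11 was lower in the THX and Long pools than in both Short pools, by −0.5 (SE 0.193, adjusted p = 0.191) and −0.47 (SE 0.193, adjusted p = 0.357). CNN1, the actomyosin inhibitor calponin, was at 11.4 and 13.1 CPM in THX pools, 19 and 16.4 CPM in Long pools and 12.5 and 24.3 CPM in Short pools. Its log2 difference in THX against Long pools was −0.53 with an interval from −1.21 to 0.15 (adjusted p = 0.684), which holds both a fold of 2 downward and no difference.

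LMOD1 had the lowest p of the mural genes in THX against Long pools. LMOD1, leiomodin, which starts actin filaments in smooth muscle, was at 55.4 and 40.7 CPM in THX pools, 35.1 and 28 CPM in Long pools and 41.2 and 44.7 CPM in Short pools. Both THX pools were above both Long pools, and THX pool 2 was just below the Short pools. The log2 difference from Long pools was 0.61 (SE 0.168, fold 1.52, adjusted p = 0.303 by edgeR and 0.0334 by DESeq2). Long pools were also below both Short pools, by −0.44 (SE 0.168, adjusted p = 0.347). MYLK, the kinase that activates smooth muscle myosin, was at 64.1 and 48.9 CPM in THX pools, 76.6 and 63.6 CPM in Long pools and 67 and 94.5 CPM in Short pools. Its log2 difference was −0.51 in THX against Short pools (SE 0.196, adjusted p = 0.189). The intermediate filament DES had a log2 difference of 0.01 in THX against Long pools (SE 0.132).

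Over the 12 mural genes, 4 lay above and 8 below 0 in THX against Long pools, with a median of −0.07 and with 1 gene higher and 2 lower without overlap of pools (18.5% and 18.7% of all tested genes). In Long against Short pools 2 lay above and 10 below 0 (50.3% of all tested genes lay below), with a median of −0.2 and with 0 higher and 6 lower without overlap (26.7% and 26.8% of all genes). In THX against Short pools the counts were 2 and 10 (51% of all tested genes lay below 0), with a median of −0.25 and again 0 and 6 (25.7% and 26.7% of all genes). The medians against Short pools rested on Short pool 2. Without it they were −0.01 in Long against Short and −0.04 in THX against Short pools, and without Short pool 1 they were −0.44 and −0.53. The endothelial medians in these comparisons changed sign without Short pool 2, to 0.1 and 0.09, and were −0.19 and −0.23 without Short pool 1.

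**Figure D3:**
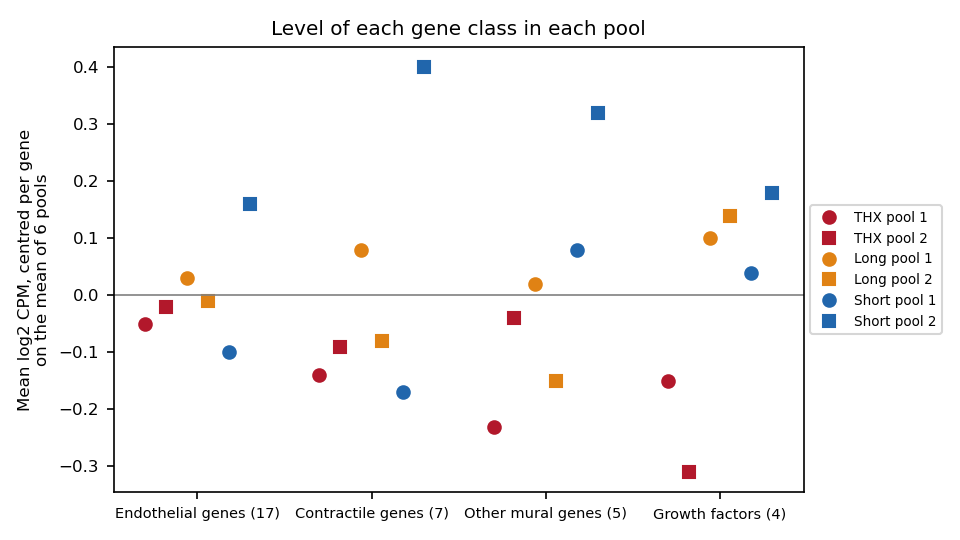
Mean log2 CPM of each class of genes in each pool, with every gene centred on its mean over the 6 pools; circles are pool 1 and squares pool 2 of a group. Short pool 2 lay at 0.4 for contractile genes and 0.16 for endothelial genes, and both THX pools were the lowest for the growth factors.

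Short pool 2 was higher than Short pool 1 in nearly all vascular genes, by amounts that varied from gene to gene. It was the higher of the 2 in 16 of 17 endothelial, 12 of 12 mural and 4 of 4 growth factor genes, whereas over all tested genes it was the higher in 48.9%. The median ratio of Short pool 2 to Short pool 1 was 1.22 for endothelial genes, 1.23 for the 5 pericyte and receptor genes of the mural class and 1.59 for its 7 contractile genes, a split by known role made after the values were seen. CNN1 had the largest ratio, 1.94, and KDR the smallest, 0.997. Of the other genes described above as highest in both Short pools, FLT1 and RGS5 were at 1.04 and TEK and PDGFRB at 1.07. NOTCH3 was at 1.23 and MYH11 at 1.59. In Long pools the ratio of pool 2 to pool 1 had a median of 0.966 for endothelial and 0.927 for mural genes, and in THX pools 1.01 and 1.12. The mean mural level minus the mean endothelial level, a quantity that no scaling of libraries can move, was −0.12 and −0.05 on the log2 scale in THX pools, 0.03 and −0.09 in Long pools and 0.03 and 0.2 in Short pools. THX pool 1 had the least mural relative to endothelial RNA and Short pool 2 the most.

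All 4 growth factor genes were lower in both THX pools than in both Long pools, without passing the test. ANGPT1, the ligand that activates TEK and keeps vessels quiescent, was at 26.9 and 19.2 CPM in THX pools, 35.2 and 37.6 CPM in Long pools and 30.2 and 32.3 CPM in Short pools. ANGPT2, a ligand of TEK that can oppose ANGPT1, was at 5.44 and 4.44 CPM in THX pools, 6.03 and 6.07 CPM in Long pools and 6.72 and 7.67 CPM in Short pools. VEGFA, the main vascular growth factor, was at 212 and 193 CPM in THX pools, 238 and 238 CPM in Long pools and 235 and 236 CPM in Short pools. In these 3 genes both THX pools lay below all 4 pools of control ewes, and the order of Long and Short pools differed from gene to gene. PDGFB, the ligand of PDGFRB, was at 15.2 and 18 CPM in THX pools, 18.4 and 19 CPM in Long pools and 16.6 and 19.8 CPM in Short pools, with overlap of THX and Short pools.

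The log2 difference of ANGPT1 in THX against Long pools was −0.66 (SE 0.155, interval from −1.03 to −0.29), with an adjusted p = 0.227 by edgeR and 0.00919 by DESeq2. Over the 6 fits that left out 1 pool it ran from −0.92 to −0.44, with adjusted p from 0.0661 to 0.801. VEGFA differed by −0.23 (SE 0.074, adjusted p = 0.398), ANGPT2 by −0.29 (SE 0.171, adjusted p = 0.724) and PDGFB by −0.17 (SE 0.131, adjusted p = 0.825). The 4 log2 differences had a median of −0.26, and genes that were lower without overlap of pools made up 18.7% of all tested genes in this comparison. In THX against Short pools ANGPT2 was farther from 0 than ANGPT1, at −0.54 (SE 0.17, adjusted p = 0.143) and −0.44 (SE 0.155, adjusted p = 0.167), and VEGFA was at −0.22 (SE 0.074, adjusted p = 0.16). Over the 6 fits that left out 1 pool, the log2 difference of ANGPT1 in that comparison ran from −0.7 to −0.21. In Long against Short pools VEGFA differed by 0.01, with an interval from −0.16 to 0.19. The ratio of ANGPT2 to ANGPT1 counts, which no scaling can move, was 0.202 and 0.231 in THX pools, 0.171 and 0.161 in Long pools and 0.223 and 0.237 in Short pools. Long pools were the lowest in this ratio, and 2 pools against 2 are too few for an exact permutation test to reach 0.05.

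**Figure D4:**
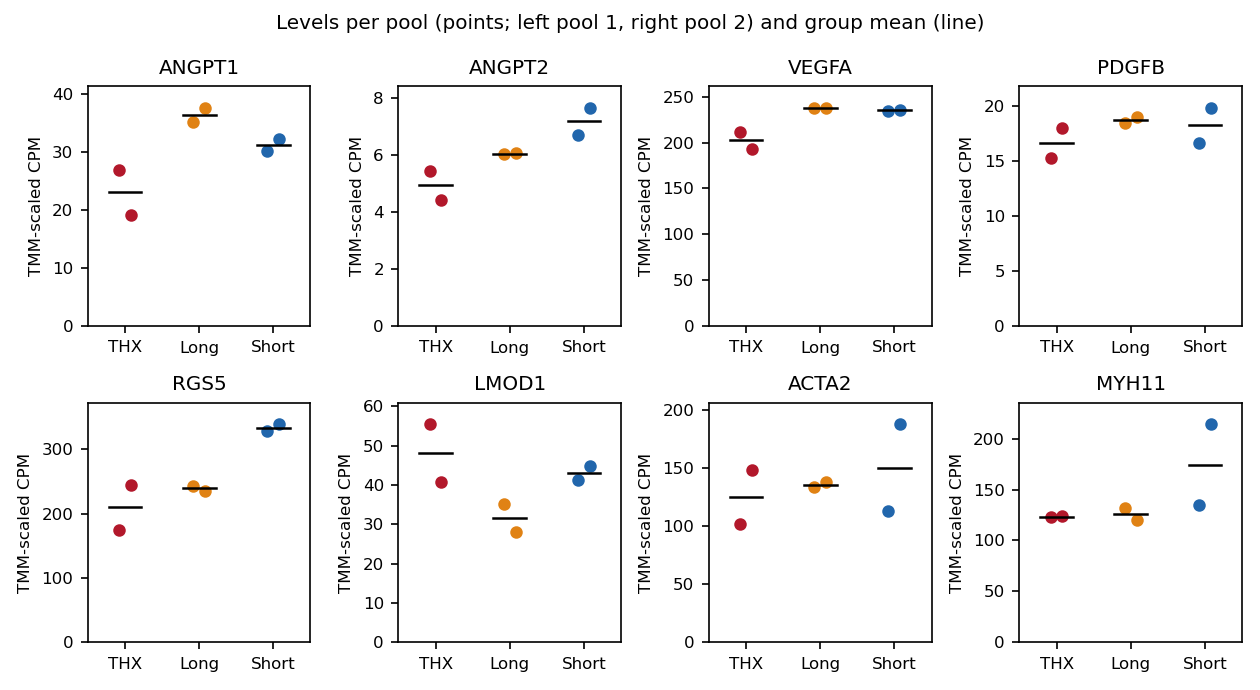
TMM-scaled CPM of 8 genes in each pool (points) with the group mean (line), for THX, Long and Short pools, on axes that start at 0. ANGPT1, ANGPT2 and VEGFA had both THX points below all others, RGS5 had both Short points above all others, and the Short points of ACTA2 and MYH11 lie far apart.

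Further vascular genes, listed by role, gave 5 calls in THX against Short pools and 0 in each of the other comparisons by edgeR. Over all genes, 0.599% fell and 0.316% rose in THX against Short pools. Of 29 other growth factors and receptors, 0 rose and 1 fell there. EDNRB, an endothelin receptor that cells other than endothelium also carry, was at 995 and 1017 CPM in THX pools, 1292 and 1219 CPM in Long pools and 1436 and 1366 CPM in Short pools, and fell by 0.48 on the log2 scale in THX against Short pools (SE 0.076, adjusted p = 0.0475). APLNR, the apelin receptor of sprouting endothelium, was at 6.57 and 8.24 CPM in THX pools, 15.2 and 12.8 CPM in Long pools and 8.85 and 12.9 CPM in Short pools. Its log2 difference in THX against Long pools was −0.92 (SE 0.218, adjusted p = 0.229), and that of the angiopoietin-like ANGPTL2 was −0.84 (adjusted p = 0.185). RAMP2, the coreceptor for adrenomedullin, had a log2 difference of 0.6 in THX against Short pools (adjusted p = 0.0713). In THX against Long pools the list held 21 of 29 below 0 with a median of −0.08, 1 higher and 5 lower at an unadjusted p under 0.05 (4.16% and 4.92% of all genes), and 3 calls by DESeq2, all downward (2.49% of all genes in either direction).

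Of 12 Notch pathway genes, 0 rose and 1 fell in THX against Short pools. NOTCH2 was at 112 and 105 CPM in THX pools, 124 and 123 CPM in Long pools and 162 and 155 CPM in Short pools, and fell by 0.55 on the log2 scale (SE 0.073, adjusted p = 0.0329). The 3 groups did not overlap in this gene. HEYL, a Notch target gene of mural cells, had a log2 difference of −0.54 in THX against Long pools (SE 0.14, adjusted p = 0.263) and −0.61 in THX against Short pools (SE 0.14, adjusted p = 0.0889). The ligand JAG1 was at −0.46 in THX against Short pools (adjusted p = 0.116). In THX against Long pools the list had a median of −0.10, with 2 genes lower at an unadjusted p under 0.05 (4.92% of all genes) and 1 call by DESeq2 (2.49% of all genes).

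Of 36 other endothelial genes tested, 0 rose and 1 fell in THX against Short pools. PTPRB, a phosphatase that restrains TEK signalling, was at 68.9 and 56.9 CPM in THX pools, 74.4 and 81.3 CPM in Long pools and 101 and 103 CPM in Short pools, and fell by 0.7 on the log2 scale (SE 0.106, adjusted p = 0.0421). Like FLT1 and KDR, it was highest in both Short pools, and here the Long pools lay between. ROBO1, a guidance receptor not restricted to endothelium, had log2 differences of −0.82 in Long against Short and −0.86 in THX against Short pools (SE 0.196 each, adjusted p = 0.342 and 0.0883). In THX against Long pools 24 of the 36 lay below 0, with a median of −0.11, 1 higher and 4 lower at an unadjusted p under 0.05 (4.16% and 4.92% of all genes), and 1 call by DESeq2 (2.49% of all genes).

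The 38 other contractile and pericyte genes had no call by edgeR in any comparison, with 9, 7 and 20 at an unadjusted p under 0.05 in THX against Long, Long against Short and THX against Short pools (9.08%, 13.8% and 22.6% of all genes), and 2, 2 and 10 calls by DESeq2 (2.49%, 0.882% and 9.77% of all genes). In both comparisons of THX pools 32 of 38 lay below 0, with medians of −0.16 against Long and −0.3 against Short pools, where the medians of all genes were 0 and −0.01. TPM2, a tropomyosin of muscle filaments, was at 54.5 and 57.4 CPM in THX pools, 74.8 and 88.8 CPM in Long pools and 59.1 and 74.6 CPM in Short pools (log2 difference from Long −0.55, SE 0.133, adjusted p = 0.241). PRKG1, the kinase through which cyclic GMP relaxes smooth muscle, had a log2 difference of −0.6 in THX against Long pools (adjusted p = 0.261), and GUCY1A1, a subunit of the nitric oxide receptor that makes cyclic GMP, −0.85 in THX against Short pools (adjusted p = 0.0669). MRTFA, a coactivator of serum response factor, lay the other way, at 124 and 116 CPM in THX pools, 101 and 100 CPM in Long pools and 94.7 and 94.1 CPM in Short pools (log2 difference from Short 0.35, SE 0.071, adjusted p = 0.074).

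Of 12 basement membrane genes tested, SPARC, a collagen-binding matrix protein, fell in THX against Short pools and none rose. It was at 435 and 437 CPM in THX pools, 539 and 534 CPM in Long pools and 626 and 584 CPM in Short pools, with a log2 difference of −0.47 (SE 0.074, adjusted p = 0.045). LAMA4, the laminin chain of vessel basement membranes, had a log2 difference of −0.58 (SE 0.098, adjusted p = 0.0552). All 12 lay below 0 in Long against Short pools (50.3% of all tested genes did), with a median of −0.15. At an unadjusted p under 0.05 there were 3 (13.8% of all genes). There were 0 calls by edgeR and by DESeq2 (0% and 0.882% of all genes). In THX against Short pools 6 of the 12 were lower and 0 higher at an unadjusted p under 0.05 (22.6% of all genes in either direction). DESeq2 called 3 of the 12 there (9.77% of all genes) and 1, SPARC, in THX against Long pools (2.49% of all genes). Among 14 hypoxia response genes, HIF1A, the oxygen-regulated factor that drives VEGFA, fell by 0.57 in THX against Short pools (SE 0.084, adjusted p = 0.0386) and none rose. HIF1A stood at 60.3 and 57.3 CPM in THX pools, 75.7 and 73.9 CPM in Long pools and 92.1 and 82.4 CPM in Short pools, with no overlap of the 3 groups. The median of the 14 was 0.01 in that comparison. Over the fits that left out 1 pool, the log2 differences of EDNRB, NOTCH2, PTPRB, SPARC and HIF1A in THX against Short pools stayed negative. They lay between −0.84 (PTPRB) and −0.42 (SPARC). Each of these fits leaves a group of 1 pool, so calls in them are not counted. The calls of all 5 genes were lost when only the 4 THX and Short pools were fitted (edgeR adjusted p from 0.109 to 0.154).

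Some markers of other cells were called in these comparisons. Over all genes edgeR called 0.283% in THX against Long, 0% in Long against Short and 0.916% in THX against Short pools. Of 15 fibroblast and leptomeningeal markers 13 were tested, and their summed level was 1005 and 1071 CPM in THX pools, 1484 and 1411 CPM in Long pools and 1272 and 1426 CPM in Short pools. LUM, a collagen-binding proteoglycan of fibroblasts, was at 52.1 and 56.7 CPM in THX pools, 86 and 95.3 CPM in Long pools and 82.5 and 82.8 CPM in Short pools, and fell in THX pools against both groups (log2 difference −0.74 from Long and −0.6 from Short, edgeR adjusted p = 0.0314 and 0.0351). No other gene of that list was called by edgeR. In THX pools 11 of the 13 lay below 0 against Long and also against Short pools, each with a median of −0.5. At an unadjusted p under 0.05, 6 and 7 of them were lower and 0 higher (9.08% and 22.6% of all genes in either direction). DESeq2 called 3 and 5 of them, all downward (2.49% and 9.77% of all genes in either direction). DPT of that list had no counts in 2 pools and at most 3 counts in the others. Of 14 macrophage and leukocyte markers 12 were tested, with sums of 245 and 260 CPM in THX pools, 288 and 302 CPM in Long pools and 235 and 274 CPM in Short pools. None of the 12 was called in any comparison by edgeR or DESeq2. Of 17 epithelial markers 15 were tested. Their sum, most of it reads of TTR, was 130235 and 152511 CPM in THX pools, 118595 and 120545 CPM in Long pools and 98151 and 103699 CPM in Short pools. Single epithelial genes changed both ways. HTR2C, a serotonin receptor, was at 27.2 and 26.1 CPM in THX pools, 44.4 and 44.1 CPM in Long pools and 70.4 and 69.4 CPM in Short pools, and fell in THX pools against Long (log2 difference −0.73, edgeR adjusted p = 0.0203) and Short pools (−1.39, adjusted p = 0.00168). KL, the FGF coreceptor klotho, was at 715 and 608 CPM in THX pools, 893 and 978 CPM in Long pools and 1278 and 1098 CPM in Short pools, and fell in THX against Short pools (−0.85, adjusted p = 0.033). IGFBP2, which binds insulin-like growth factors, was at 2321 and 2889 CPM in THX pools, 1731 and 1726 CPM in Long pools and 1246 and 1334 CPM in Short pools, and rose in THX against Short pools (1.01, adjusted p = 0.0237). KCNE2 of that list had no counts in the 4 control pools. Long pool 2 had 53.5 CPM of the red cell gene HBB, where the other 5 pools had 0.478 to 4.59 CPM, and 2.76 CPM of the skeletal muscle actin ACTA1, where the others had at most 0.211 CPM. Skeletal muscle myosins MYH1 and MYH2 had no counts in any pool. The part of these cells in the vascular values was not tested.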

How the data were processed

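The authors deposited 1 table of raw read counts per gene for the 6 pools of choroid plexus RNA. Per the submitters' processing notes, TopHat2 2.1.1, featureCounts 2.0.0 and SAMtools 1.9 were used, with bcl2fastq 2.20, MultiQC 1.9 and FastQC 0.11.8 also named. The library kit was stranded, per the labels' protocols. No source used here names the genome build, annotation or strand setting, so reads of overlapping or antisense genes may be shared. All 33 identifiers matched the RefSeq gene table, with the same symbol.

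The counts were filtered with filterByExpr, TMM-scaled and fitted with the quasi-likelihood F test of edgeR 4.0.16 (R 4.3.3) on all 6 pools with 3 group means. Tests were two-sided, with Benjamini-Hochberg adjustment over 18019 genes and a threshold of 0.05. The fit had 3 residual and 3.96 prior degrees of freedom and a common biological coefficient of variation of 0.151. SEs follow from the log2 difference and F. Centred levels used log2 CPM with a prior count of 2. DESeq2 1.42.0, limma 3.58.1 (voom), other scalings and filters, a replicate block and fits without 1 pool were alternatives. The code was tested on simulated data. Figures used Python 3.11.15 and matplotlib 3.10.9.

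Values per pool are given for the 3 endothelial and 3 mural genes of lowest p in each comparison, every member called, all 4 growth factors and 12 defining markers. The other members are given by difference or range. Of the further lists, genes called are named with their values per pool, with up to 3 genes of lowest p in a comparison. The members and lists were chosen with earlier results of these data known. Pools with the same number were not taken as pairs; the closing section gives their correlations. The 2 pools of each group differed by more than sampling noise.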

Additional observations from a re-analysis of the deposited data

How the results depend on the processing

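The 2 pools per group limit every comparison, and a pool mixes ewes, so the spread between ewes is not seen. By DESeq2, THX against Long pools gave 1 mural call (LMOD1) and 1 growth factor call (ANGPT1), and THX against Short pools gave 2 endothelial calls (FLT1, EMCN) and 1 mural call (RGS5). With no filter on low counts there was 1 growth factor call in THX against Long (ANGPT1) and 1 mural call in THX against Short pools (RGS5). At an adjusted p of 0.1, THX against Short pools had 1 endothelial and 1 mural call, where 922 of all 18019 genes were called. Each fit that left out 1 pool had a group of 1 pool, so calls of members in those fits are not counted here. Over these fits the endothelial median ran from −0.19 to 0.1 in Long against Short and from −0.23 to 0.09 in THX against Short pools. The mural median ran from −0.44 to −0.01 and from −0.53 to −0.04. Short pool 1 was left out at the low end and Short pool 2 at the high end. With 2 pools in each compared group, the other settings kept the class counts at 0. Total-count scaling put the median of all genes in THX against Short pools at −0.11 (259 calls, 49 upward and 210 downward, against 57 and 108 with TMM).

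Over all genes, the calls in THX against Long, Long against Short and THX against Short pools were 51, 0 and 165 by edgeR, 448, 159 and 1761 by DESeq2, 204, 0 and 908 with no filter, and 22, 0 and 11 with only the 4 pools compared. Same-numbered pools had correlations of their deviations of 0.067 for THX and Long, 0.211 for THX and Short and −0.0586 for Long and Short, so the numbers were not taken as pairs. With the replicate block 0 members were called in each comparison, and the calls over all genes in THX against Short pools were 392.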

Other observations

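Some striated muscle and red cell genes were high in 1 pool, chosen here after their values were seen. In Long pool 2, MB, the oxygen store of muscle, had 92 counts and CKM, muscle creatine kinase, 86 counts, where the other 5 pools had 13 to 24 counts of MB and 2 to 12 of CKM. ALAS2, the heme synthesis enzyme of red cells, had 30 counts there and at most 1 in each other pool. Other genes of these lists did not stand out there: TNNT3 had 43 counts in Long pool 2 and 31 to 50 in the others, ACTC1 13 counts and 7 to 44, and AHSP 2 counts and 2 to 7. Their part in the vascular values of that pool was not tested. Of the 13 neuronal, glial and ependymal markers tested, 0 changed in any comparison by edgeR, with 3, 0 and 6 at an unadjusted p under 0.05 in THX against Long, Long against Short and THX against Short pools (9.08%, 13.8% and 22.6% of all genes).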
